A study of Mus musculus with 8 samples.

Results

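The Hes and Hey genes encode basic helix-loop-helix (bHLH) proteins that repress transcription. All 9 mouse family members listed for this description (Hes1, Hes2, Hes3, Hes5, Hes6, Hes7, Hey1, Hey2 and Heyl) were on the array. They were found by their RefSeq accession, 1 probe each, among 20660 genes with a named probe. The probes were read in 8 samples of primary spheres grown for 8 days from dissociated cells of the superior mesenteric ganglion, a sympathetic ganglion, of 3-week-old mice. The RA (-) spheres (4 arrays) grew in medium without retinoic acid (RA), and the RA (+) spheres (4 arrays) in medium with it. They are called RA-free and RA-containing below. Every culture came from TH-MYCN hemizygote (TH-MYCN+/-) mice on the 129+Ter/SvJcl background, so both media share the transgene, in which the tyrosine hydroxylase promoter drives human MYCN in sympathetic cells, and no culture lacks it. Cells of 1 ganglion were divided between both media, and arrays with the same replicate number are therefore pairs from 1 animal. Unsorted ganglion cells went into culture, so a sphere may hold other cells of the ganglion beside neuroblasts.

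When a Notch receptor is activated by a Delta or Jagged ligand on a neighbouring cell, its cleaved intracellular part enters the nucleus and joins the DNA-binding protein RBPJ and a Mastermind coactivator. Hes1, Hes5, Hey1, Hey2 and Heyl are the classical targets of this complex. Their proteins recruit corepressors, Groucho (TLE) in the case of Hes1 and Hes5, and hold back proneural bHLH genes, which keeps progenitors from becoming neurons. Hes6 stands apart, since its protein antagonises Hes1 and favours neuronal differentiation, and Hes7 is best known from the segmentation clock of the embryo.

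The promoters of Hes5 and Hes7 are shown because Hes5 was the one member that passed the test as higher without RA, while Hes7 did not pass it, and both hold the core letters bound by RBPJ. The sequences are the 250 bases before the annotated start, from RefSeq on GRCm38.p6, read 5′ to 3′ on the strand of the gene. Capitals mark TGGGAA or its reverse complement TTCCCA.
Hes5, chr4:154960673-154960922, plus strand: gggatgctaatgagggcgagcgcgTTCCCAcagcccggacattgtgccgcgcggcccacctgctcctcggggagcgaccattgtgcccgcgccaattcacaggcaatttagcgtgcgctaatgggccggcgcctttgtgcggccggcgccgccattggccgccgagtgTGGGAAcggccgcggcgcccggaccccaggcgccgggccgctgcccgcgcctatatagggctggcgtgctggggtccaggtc
Hes7, chr11:69120203-69120452, plus strand: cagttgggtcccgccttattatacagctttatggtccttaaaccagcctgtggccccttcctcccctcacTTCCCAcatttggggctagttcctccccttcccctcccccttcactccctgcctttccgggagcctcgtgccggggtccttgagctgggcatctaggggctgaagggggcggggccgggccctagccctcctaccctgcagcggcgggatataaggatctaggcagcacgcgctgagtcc
The Hes5 window held the RBPJ core at 2 places, beginning 226 and 82 bases before the start and lying on opposite strands. The Hes7 window held 1 match, beginning 180 bases before the start.

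Promoter sequence was at hand for 4 of the 9 members, with 2 starts for Hes6. Hey2 also held 1 RBPJ core and both Hes6 windows held none, while 21.6% of 32851 promoter windows of the same length held at least 1 on either strand. The N-box CACNAG, a site that Hes proteins bind, had 1 match in the Hes7 window, 1 in a Hes6 window and none in those of Hes5 and Hey2, against 36.7% of all windows with a match. The class C site CACGNG, in 23.5% of windows, had 2 matches in the Hes7 window, of which 1 overlaps its N-box, 1 in the other Hes6 window and none in those of Hes5 and Hey2. The retinoic acid receptor half-site AGGTCA matched only in 1 Hes6 window (14% of all windows), and the direct repeat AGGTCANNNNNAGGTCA matched in no member's window (0.00913% of all windows, both strands). All 5 member windows held more G and C than the median of 52.4% over all windows. The share was 71.6% for Hes5 and Hey2, 64% and 63.6% for Hes6 and 63.2% for Hes7. These letters describe the windows and do not show that a factor was bound.

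Each level is the log2 of a processed spot intensity minus that array's own 75th percentile, and levels of different probes are not set against each other. A spot that the scanner software marked as well above its background is called detected. The share of detected spots was 48.5% to 55.0% on RA-free arrays and 52.7% to 55.3% on RA-containing arrays, and no non-control spot was saturated. In a principal component analysis the media lay apart along component 1 (76.8% of variance), where RA-free array 1, at 55.6, lay nearer to the RA-containing arrays than the other RA-free arrays, at 80.6 to 88.8. Of 13539 genes tested, 64.3% changed at an adjusted p under 0.05 by limma with the animal as a block. The labelled identity held at the level of markers, since all 16 listed sympathetic neuroblast genes, among them Phox2a, Gata3 and Dbh, were detected on all arrays. In bulk samples such as these, fewer cells of a type and less RNA per cell cannot be told apart. The same holds for more cells and more RNA per cell.

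Without RA, Hes5 was 1.80-fold higher and Hey1 1.20-fold lower. Heyl was also lower, by a log2 difference of −1.53 as fitted and −0.53 under normexp with quantile normalization, a size that is uncertain because 2 of its 4 RA-free spots were not detected. Hes6, Hes7 and Hes2 did not pass the test, and the probes of Hes1, Hes3 and Hey2 were too dim to be tested. A gene was tested if its spots were detected on 4 or more arrays. Of the 9 members 6 passed, 5 with all 8 arrays detected and Heyl with 6, so for Heyl the 4 RA-containing arrays sufficed. Of these 6, 1 was called higher and 2 lower, a total of 3, where 64.3% of all tested genes were called. That share is near the background and says nothing particular of the family. The calls in each direction stood against 36.1% higher and 28.2% lower over all genes.

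**Figure D1:**
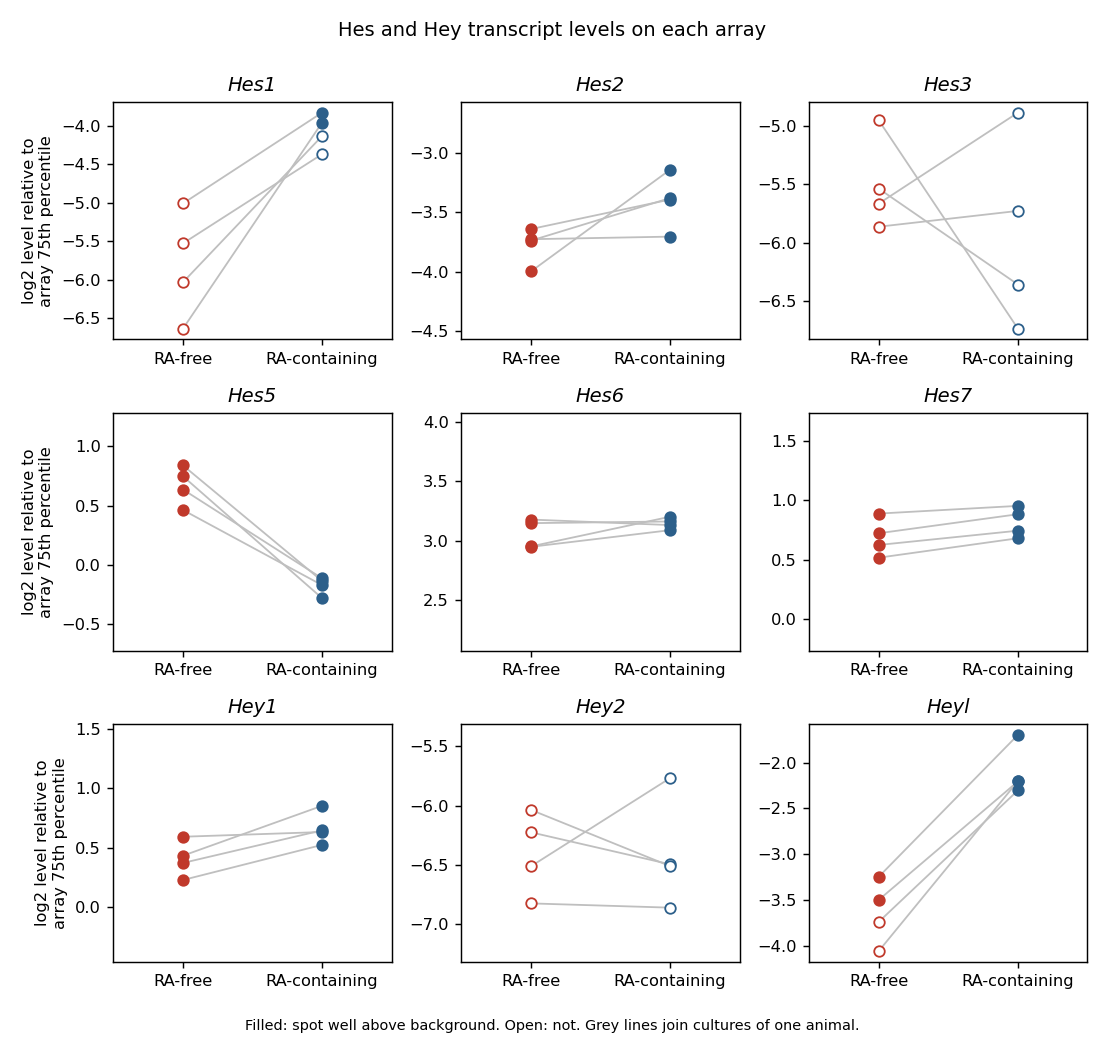
Levels of the 9 Hes and Hey transcripts (vertical axis, log2 relative to the array's 75th percentile) on the 4 RA-free arrays (left, red) and the 4 RA-containing arrays (right, blue) of each gene, with grey lines between cultures of 1 animal and open points for spots not detected. Hes5 stands above and Heyl below the RA-containing arrays in all 4 animals, and the axes span at least 2 log2 units in every panel.

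Hes5, a direct Notch target that maintains neural progenitors, had levels of 0.64, 0.46, 0.84 and 0.75 on RA-free arrays 1 to 4, against −0.11, −0.17, −0.13 and −0.28 on RA-containing arrays 1 to 4. The groups did not overlap, as in 53.3% of all tested genes, and every animal had more Hes5 transcript without RA. The mean was 0.67 ± 0.16 without RA and −0.17 ± 0.07 with RA (SD, n = 4 each), a log2 difference of 0.84 (SE 0.09, 95% interval 0.61 to 1.08, limma adjusted p = 0.000722). The differences within animals 1 to 4 were 0.75, 0.63, 0.97 and 1.03. No single animal thus carried the difference. In unscaled intensity units the spots read 458, 336, 468 and 395 without RA and 279, 272, 208 and 246 with RA, against a median local background of 26 to 29.

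Heyl, a Hey gene known from vascular smooth muscle and from the developing nervous system, moved the opposite way. Its levels were −3.25, −3.50, −4.06 and −3.74 on RA-free arrays 1 to 4, against −1.70, −2.20, −2.20 and −2.30 on RA-containing arrays 1 to 4. The groups again did not overlap, and RA-containing array 1 stood above its 3 partners. The mean was −3.63 ± 0.35 without RA and −2.10 ± 0.27 with RA (SD, n = 4 each), a log2 difference of −1.53 (SE 0.11, 95% interval −1.80 to −1.27, limma adjusted p = 0.000180). RA-free spots were detected on 2 of 4 arrays, 1 and 2, at intensities of 31.1 and 21.6, and read 15.7 and 17.6 on arrays 3 and 4. The size of the fall is therefore uncertain at its lower end. Under normexp background correction with quantile normalization, which compresses dim spots, it was −0.53 (adjusted p = 9.51e-05).

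Hey1, the Notch target that also answers to BMP signals, had levels of 0.23, 0.43, 0.37 and 0.59 on RA-free arrays 1 to 4 and 0.52, 0.85, 0.64 and 0.63 on RA-containing arrays 1 to 4. It was lower without RA in all 4 animals, but RA-free array 4 lay above RA-containing array 1, so the groups overlapped. The mean was 0.40 ± 0.15 without RA and 0.66 ± 0.14 with RA (SD, n = 4 each). The log2 difference of −0.26 (SE 0.09, 95% interval −0.47 to −0.04) lay just inside the threshold with a limma adjusted p of 0.0422, over alternatives that ranged from 0.0120 to 0.785. The call was lost without the block for the animal (0.0660), under spike-in scaling (0.785), under scaling to the array median (0.125), with no filter on dim probes (0.0792) and without animal 1, 2 or 3 (0.116, 0.157 and 0.0888). Fitted over all 29358 tested probes rather than over genes, Hey1 had an adjusted p of 0.0554, and 2 of the 6 tested member probes were called, Hes5 as higher and Heyl as lower. Over all tested probes 57.8% were called, 35.9% higher and 21.9% lower.

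**Figure D2:**
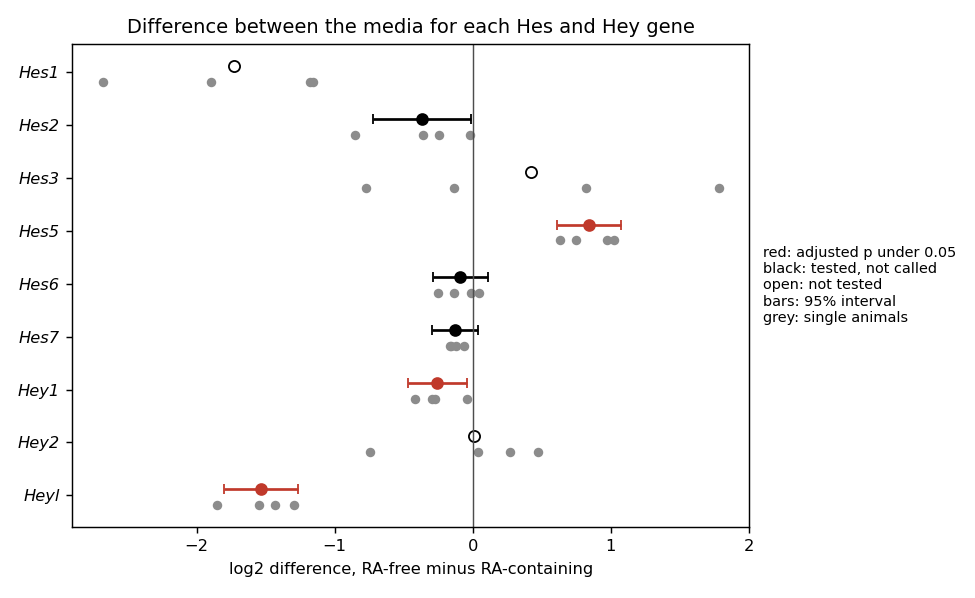
Log2 difference, RA-free minus RA-containing, of each Hes and Hey gene (horizontal axis), with the fitted value and its 95% interval for the 6 tested genes, the plain difference of means for the 3 untested genes, and the 4 single animals in grey below. The interval of Hes5 lies above 0, those of Heyl, Hey1 and Hes2 below it, and those of Hes6 and Hes7 span it.

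Hes6, whose protein opposes Hes1, was detected on all 8 arrays. Its levels were 3.15, 3.18, 2.95 and 2.95 on RA-free arrays 1 to 4 and 3.16, 3.13, 3.20 and 3.09 on RA-containing arrays 1 to 4. The groups overlapped, and the log2 difference was −0.09 (SE 0.08, limma adjusted p = 0.367) with a 95% interval of −0.29 to 0.11. The difference took the opposite sign under spike-in scaling (0.063, adjusted p = 0.873) and passed the test as lower under normexp with quantile normalization (−0.21, adjusted p = 0.0250).

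Hes7 had levels of 0.89, 0.62, 0.72 and 0.52 on RA-free arrays 1 to 4 and 0.95, 0.74, 0.88 and 0.68 on RA-containing arrays 1 to 4. All 4 animals had a slightly lower value without RA, by 0.06 to 0.16, although the levels of both media overlapped across animals. The log2 difference was −0.13 (SE 0.07, 95% interval −0.29 to 0.04, limma adjusted p = 0.144). It passed when arrays were scaled to the 75th percentile of probes detected on all arrays (−0.24, adjusted p = 0.0240) and turned to 0.026 under spike-in scaling (adjusted p = 0.951).

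Hes2, a little-studied member of the family, had levels of −3.73, −4.00, −3.64 and −3.74 on RA-free arrays 1 to 4 and −3.70, −3.14, −3.39 and −3.38 on RA-containing arrays 1 to 4. Its spots were detected on all 8 arrays but dim, at 15.3 to 22.3 intensity units without RA and 21.7 to 34.7 with RA. The log2 difference was −0.37 (SE 0.14, limma adjusted p = 0.0647), lower in all 4 animals but by 0.86 in animal 2 and by 0.02 in animal 1, and the groups overlapped. Without animal 1 it passed (−0.49, adjusted p = 0.0382). It also passed without the block for the animal (adjusted p = 0.0370) and under the scaling to detected probes (adjusted p = 0.0306). Without animal 2 the difference was −0.21. It was −0.22 under spike-in scaling (adjusted p = 0.543) and −0.099 under normexp with quantile normalization (adjusted p = 0.242).

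Hes1, the most widely used Notch target, is represented by 1 probe that was close to background. Its spots read 2.97, 5.30, 4.00 and 7.31 intensity units on RA-free arrays 1 to 4 and 19.4, 14.8, 13.0 and 21.1 on RA-containing arrays 1 to 4, and were detected on no RA-free array and on RA-containing arrays 1 and 4. The 2 sets of intensities did not overlap, but most of these spots were not detected. Hes1 did not pass the filter, and no call is made. The plain difference of log2 means was −1.73 as scaled here and −0.15 under normexp with quantile normalization. Neither is a measured size, because no RA-free spot and only 2 RA-containing spots were detected.

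Hes3 and Hey2 were detected on no array. Hes3 spots read 4.04 to 7.86 intensity units without RA and 2.78 to 10.2 with RA, and Hey2 spots 2.60 to 3.58 without RA and 2.53 to 5.61 with RA. At this brightness a difference was not detectable for either. Hey2 is known from the heart and from arterial vessels, and Hes3 from neural progenitors.

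The genes most like Hes5, Heyl and Hes2 over the 8 arrays were looked up by Pearson correlation of levels among all tested genes. Since the medium separates the arrays, a high correlation is shared by many genes, and no p is given. Closest to Hes5 were Naprt (r = 0.992), Setbp1 (0.989) and Ecm1 (0.988), all called higher without RA by 0.82 (0.49 under normexp with quantile normalization), 0.77 and 0.50. Closest to Heyl were Fbxl17 (0.996), Pnrc1 (0.995) and Acsl6 (0.994), with log2 differences of −0.78, −0.59 and −0.53, all called lower. The calls of Pnrc1 and Acsl6 were lost under spike-in scaling (adjusted p = 0.182 and 0.261). Hes2 was matched less closely, by Ppil6 (0.947), Neurod2 (0.942) and Nmb (0.919). Of these Ppil6 was called lower and, with no RA-free spot detected, was at least 1.12-fold lower in processed intensity. That call was lost under normexp with quantile normalization (−0.10, adjusted p = 0.204). Neurod2 (adjusted p = 0.115) did not pass, except without animal 1 (0.0332). Nmb (adjusted p = 0.234) passed only under normexp with quantile normalization (0.0426).

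Hes2, Hes3, Hes5 and Heyl all lie on chromosome 4. The nearest tested genes on either side of Heyl in RefSeq order, Ppie and Pabpc4, had differences of 0.80 (called higher) and 0.14 (adjusted p = 0.138), so neither fell with it. Beside Hes5, Pank4 was called higher by 0.41 and Tnfrsf14 was not called (0.14, adjusted p = 0.654). Acot7 beside Hes2 (−0.51) and Gpr153 beside Hes3 (−1.99) were called lower, while Tnfrsf25 and Icmt on their other sides were not called. Next to Hey1, on chromosome 3, Stmn2 was called lower (−0.64) and Mrps28 higher (0.89).

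Upstream of the family, the 4 Notch receptors were, as fitted, all called higher without RA and the Delta ligands lower. Of 9 listed receptors and ligands, all tested, 5 were called higher and 3 lower, with a median of 0.25, against a median of 0.07 over all tested genes. The count called higher was 4 with no filter on dim probes, under spike-in scaling and under the scaling to detected probes. It was also 4 without the block for the animal and without animal 1, 2 or 3. Notch1 had levels of 1.77, 1.32, 2.24 and 2.08 on RA-free arrays 1 to 4 and 1.52, 0.91, 1.52 and 1.51 on RA-containing arrays 1 to 4. It was higher in all 4 animals, by 0.48 (SE 0.10, limma adjusted p = 0.00692, but 0.0831 without the block for the animal), although the groups overlapped. Jag1 was higher by 1.36 (SE 0.13). Dll3 had a difference of −1.22 (SE 0.14), Dll1 one of −1.13 (SE 0.25) and Dll4 one of −3.31 (SE 0.32). Dll4, with 1 of 4 RA-free spots detected, and Dll1, with 3 of 4, had −0.96 and −0.38 under normexp with quantile normalization, where Jag1 had 0.74, and all 3 remained called.

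**Figure D3:**
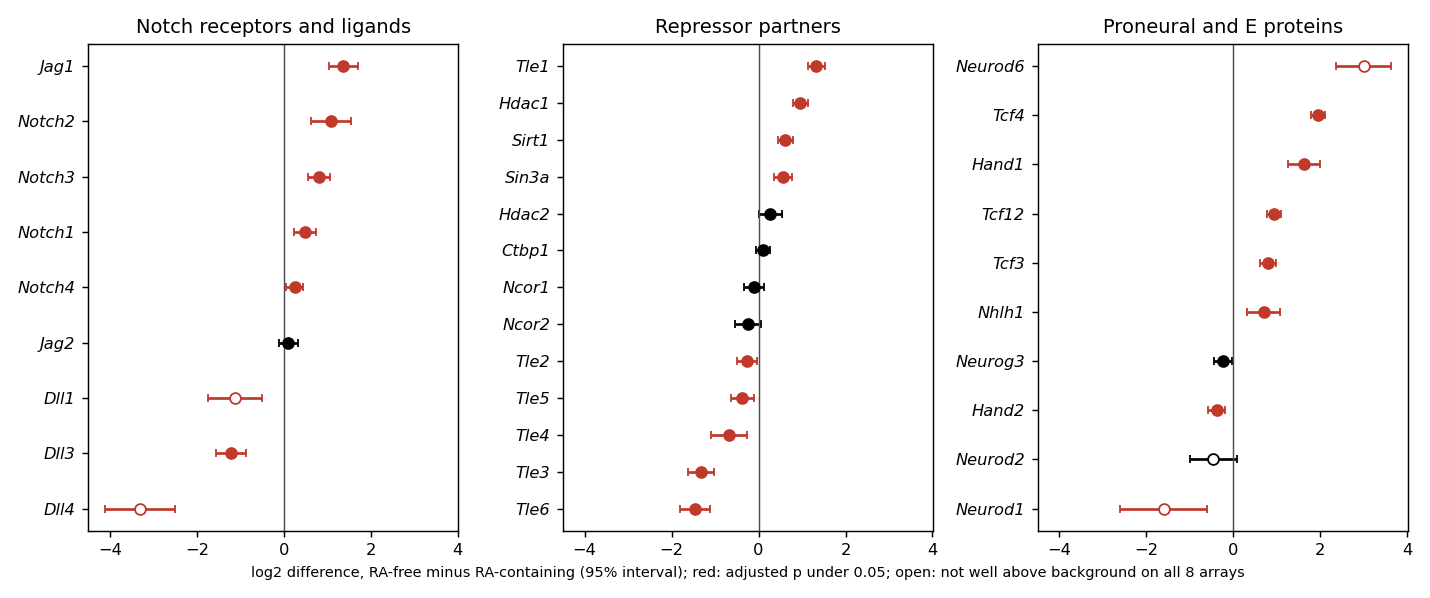
Log2 difference, RA-free minus RA-containing, with its 95% interval (horizontal axis) for Notch receptors and ligands (left), corepressors and other partners of Hes and Hey proteins (middle), and proneural and E protein bHLH genes (right). Points in red passed the test, open points were not detected on all 8 arrays, and the 4 receptors with Jag1 lie above 0 while Dll1, Dll3 and Dll4 lie below it.

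Atypical relatives of the ligands went both ways, with 2 of the 6 tested genes called higher, 3 lower (1 under spike-in scaling) and a median of −0.34. Dlk1, a membrane protein that resembles Delta but lacks its receptor-binding domain, had the largest difference of the list, 6.05 (SE 0.28), and was higher in all 4 animals. Dner, an EGF-repeat protein of neurons, had −3.94 (SE 0.36, 3 of 4 RA-free spots detected). The matrix gene Thbs2, with no RA-containing spot detected, was at least 3.04-fold higher in processed intensity. Under normexp with quantile normalization Dner had −2.47 and Thbs2 0.55, and both passed. Mfap2, a microfibril protein, had −0.56 (SE 0.08), a call lost under spike-in scaling (adjusted p = 0.227).

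Genes that process Notch or join it in the nucleus were evenly divided, with 7 of 27 tested genes called higher, 7 called lower and a median of 0.03. Rbpj encodes the DNA-binding partner of cleaved Notch. Its levels were 2.09, 2.28, 2.04 and 2.07 on RA-free arrays 1 to 4. They were 1.63, 1.83, 1.68 and 1.64 on RA-containing arrays 1 to 4. The groups did not overlap and the difference was 0.43 (SE 0.07, limma adjusted p = 0.00256, 0.0706 under spike-in scaling). Called lower with the largest size were Numbl and Neurl1a, regulators of Notch and its ligands, at −1.52 (SE 0.19) and −0.85 (SE 0.15), the gamma-secretase gene Psen2 at −1.39 (SE 0.18) and Dtx4 at −0.67 (SE 0.13, adjusted p = 0.111 under spike-in scaling). The counts were 2 higher and 3 lower under spike-in scaling, 4 higher without animal 1 and 4 lower without animal 2.

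Among the listed corepressors and other partners of Hes and Hey proteins, 4 of 13 tested genes were called higher and 5 called lower, with a median of −0.11. Of the Groucho genes, Tle1 was higher by 1.33 (SE 0.08), with 0.20 by another of its 3 probes, while Tle3 and Tle6 had −1.32 (SE 0.12) and −1.45 (SE 0.14, −0.77 under normexp with quantile normalization). Hdac1, a histone deacetylase, was higher by 0.95 (SE 0.07). Under spike-in scaling 2 of them were lower, and without animal 1 or animal 2 there were 3.

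Other genes reported as Notch targets also moved in both directions, with 3 of 10 tested called higher and 4 lower and a median of 0.0096. Id4, an inhibitor of bHLH proteins, was detected on no RA-free array and was at least 13.5-fold lower in processed intensity. Under normexp with quantile normalization, which compresses dim spots, its log2 difference was −1.70, a smaller change. Its relative Id2 was higher by 1.14 (SE 0.12), as was Ccnd1, cyclin D1, by 1.39 (SE 0.09). Myc was detected on 1 RA-free array of 4, with −1.37 (SE 0.33), or −0.23 under normexp with quantile normalization. The classical targets Nrarp and Sox9 were too dim to be tested.

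The list of proneural and E protein bHLH genes held 19, of which 11 were tested. Of these 6 were called higher and 2 lower (1 under spike-in scaling), with a median of 0.70. Over all tested genes 36.1% were called higher and 28.2% lower. Tcf4, an E protein that pairs with proneural factors, was higher by 1.95 (SE 0.07) and Hand1, a factor of sympathetic neurons, by 1.62 (SE 0.15). Neurod6 was higher by 3.00 (SE 0.25, 2 of 4 RA-containing spots detected) and Neurod1 had −1.60 (SE 0.40, 3 of 4 RA-free spots), with 1.02 and −0.48 under normexp with quantile normalization, both still called.

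Of the sympathetic neuroblast markers 5 of 16 were called higher and 6 lower (3 under spike-in scaling), with a median of −0.05. Th was higher by 3.59 (SE 0.14), Gata2 by 2.11 (SE 0.13) and Isl1 by 2.00 (SE 0.12), and Slc18a1 had −3.12 (SE 0.21). Mycn, by a mouse probe that need not read the human transgene, had −0.18 (SE 0.11, limma adjusted p = 0.198, 0.0157 and 0.0463 under both quantile normalizations).

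Hes5 is also known from glia, and Heyl, Hey1 and Hey2 from blood vessels, so markers of those cells were read from the same arrays. Of 16 listed Schwann and satellite glia markers 13 were tested, 1 was called higher and 6 lower, and the summed level of the tested markers, in units of the 75th percentile, was 63.0 to 76.6 without RA and 80.6 to 95.3 with RA. Kcnj10, Ngfr, Apoe and Fabp7 had −3.19, −2.39, −2.07 and −0.99, while Sox10 did not pass (−0.12, adjusted p = 0.257), and Erbb3 was detected on no array. Gfra3, the marker called higher (0.97), made up 18.4% to 53.0% of the sum. The part of glial cells in the Hes5 difference was not tested. Of 14 endothelial markers 6 were tested and 1, Pecam1, was called lower (−0.34, adjusted p = 0.0474, lost under 9 of 14 alternatives), with summed levels of 19.5 to 23.4 without RA and 17.2 to 20.7 with RA. Cdh5, Tek, Emcn, Erg, Sox17 and Sox18 were detected on no array. Of 12 pericyte and smooth muscle markers 5 were tested and 2 were called higher, Notch3 (0.81, SE 0.10, and 0.24 under normexp with quantile normalization) and Mcam (0.46). Mcam had −1.37 by its other probe, was called lower when its probes were averaged (−0.45, adjusted p = 0.00672) and was not called under 7 other alternatives, among them those without animal 2 (0.0553) and without animal 4 (0.0720). Its probe made up 95.2% to 97.7% of the summed level of the list, which was 44.7 to 52.6 without RA and 29.7 to 42.1 with RA and thus follows 1 probe. Myh11 and Kcnj8 were detected on no array. Rgs5, Cspg4 and Tagln had −0.46, −0.24 and −0.12 and did not pass. The part of vessel cells in the Heyl and Hey1 differences was not tested.

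Of 12 fibroblast markers 9 were tested, 1 was called higher and 4 lower, with summed levels of 54.8 to 67.6 without RA and 68.9 to 76.5 with RA. Fap and Postn had −1.74 (−0.72 under normexp with quantile normalization) and −1.11, and Col1a2 was higher by 1.03. Dcn was detected on no RA-free array and passed the filter only through the RA-containing arrays. It was at least 1.61-fold lower in processed intensity (−0.32 under normexp with quantile normalization), and its groups overlapped. Lum, Pdgfra and Dpt were detected on no array. Vim made up 79.2% to 86.4% of that sum and did not pass (−0.28). Of 12 immune markers 5 were tested and 3 called lower, 2 of which passed the filter only through the RA-containing arrays, with summed levels of 14.8 to 17.1 without RA and 19.2 to 23.8 with RA. Itgam, which made up 81.4% to 90.8% of that sum, had −0.51, with −0.16 by another probe and no call under spike-in scaling (adjusted p = 0.296). Aif1 and Adgre1, detected on no RA-free array, were at least 1.44-fold and 1.39-fold lower in processed intensity. Under normexp with quantile normalization they had −0.41 and −0.32. Ptprc, Cd14, Lyz2, Cx3cr1 and Tyrobp were detected on no array. The part of fibroblasts and immune cells in the Heyl difference was not tested.

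**Figure D4:**
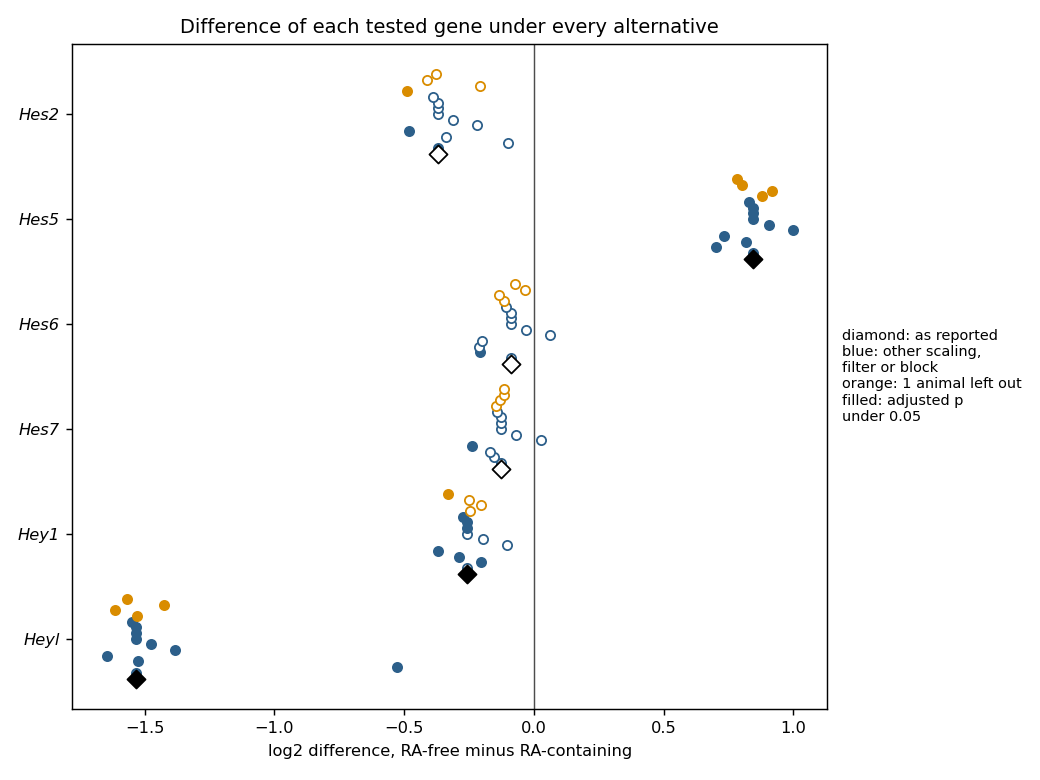
Log2 difference, RA-free minus RA-containing (horizontal axis), of the 6 tested Hes and Hey genes as reported (diamonds), under other scalings, filters and without the animal block (blue) and with 1 animal left out (orange), where filled points have an adjusted p under 0.05. Hes5 stays between 0.70 and 1.00 and Heyl between −1.65 and −0.53, both always filled, whereas Hey1 is filled under 7 of 14 alternatives.

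Over the 14 alternatives, Hes5 was called higher and Heyl called lower in each, Hes5 between 0.70 and 1.00 and Heyl between −1.65 and −0.53, with highest adjusted p of 0.00470 and 0.00134. Without animal 1, whose RA-free array stood nearest to the RA-containing arrays, Hes5 had 0.88 and Heyl −1.53. Hey1 was called in 7 of the 14, Hes2 in 3, Hes6 in 1 and Hes7 in 1.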

How the data were processed

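Cy3-labelled RNA of 8 samples was read on 1-colour Agilent arrays, all on 1 slide in 1 scan, per the file headers. Per the file headers, the authors' deposited intensities come from Agilent Feature Extraction, version 11.5.1.1. Within each array that software subtracted background and a spatial trend from the processed intensity, with no scaling between arrays. Per the labels' protocols, 40 or 200 ng of RNA was labelled, and no array is tied to an amount. A second deposited table holds log2 values centred per probe. Its columns correlated at 0.9999 or above with the scanner values, and the column medians were −0.07, 0.01, 0.17 and 0.20 for RA-free arrays 1 to 4 and −0.23, −0.22, 0.02 and −0.01 for RA-containing arrays 1 to 4. Its direction and centring follow from that match, and its exact scaling stays unknown. The deposited flags for detection, saturation and outliers were used as given.

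Processed intensities were taken to log2, the 75th percentile of the array was subtracted, and the spots of a probe were averaged without outlier spots, which removed 64 of 55681 probes. Accessions were matched to RefSeq symbols of GRCm38.p6 (27235 probes matched, 28446 did not). The array annotation is on mm9, so only names, gene order and promoter sequences were taken from that assembly. Probes flagged as detected on 4 or more arrays were tested, and the brightest probe of a symbol was kept. Differences were tested on both sides in limma 3.58.1 under R 4.3.3, in a model with medium and animal, and p-values were adjusted by the Benjamini-Hochberg method across the genes tested. The pairing comes from the series' description, and deviations of paired arrays correlated at 0.49, 0.29, 0.17 and 0.27, each array best with its partner. A fold written "at least" sets the brighter mean against the higher of each dim spot and the lowest detected signal of its array. It is a bound for processed intensities as scaled here, and under another background correction the difference can be smaller. The script was tested on simulated data with known changes. No depth can be given for arrays, and their number limits the precision.

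The members, lists and naming rule (all members, up to 4 called genes of each list with the largest change, Dlk1, Th, Rbpj, Notch1 and Mycn, and the 3 genes most like each of 3 members) were chosen with earlier results of these data known. Notch2 and Notch4 appear only within the count of receptors, neighbours were taken by position, and Sox10, Gfra3, Vim, Rgs5, Cspg4 and Tagln were picked after their values were seen. Other listed genes are counted but mostly not named, and some are not reported here.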

Additional observations from a re-analysis of the deposited data

Results flagged for a closer look

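In 6 of 128 sets of 4 arrays, 1 array lay apart from its 3 partners by more than Dixon's 95% limit, always an RA-containing array. Chance would flag about 1 in 20 sets if they were independent. They are not, since they share arrays, and Pnrc1 and Ppil6 were picked for their likeness to members. Heyl was at −1.70 on RA-containing array 1, against −2.30 to −2.20 on the other RA-containing arrays. Notch1 was at 0.91 on RA-containing array 2, against 1.51 to 1.52 on the others. Id2 (1.32, others 1.66 to 1.71), Pnrc1 (0.49, others 0.20 to 0.22) and Ppil6 (−4.58, others −3.98 to −3.87) stood apart on RA-containing array 1, and Pecam1 (−3.26, others −3.02 to −2.98) on RA-containing array 3. Without animal 1 Heyl had a log2 difference of −1.53, the same to 2 decimals as with all 4 animals.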

How the results depend on the processing

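The count of 3 Hes and Hey genes called was 5 when arrays were scaled to the 75th percentile of probes detected on all arrays, 4 of them lower, against 2 lower as reported; under spike-in scaling and under the array median 1 was lower. Leaving out 1 animal at a time gave 1 to 2 lower genes. Fitted over probes, 2 member probes were called, against 4 under normexp with quantile normalization, an alternative chosen after seeing that the files hold a median but no mean spot signal, and 5 under the scaling to detected probes. Over all genes 8705 were called, against 5250 under spike-in scaling, which moved the median of all genes from 0.07 to 0.22, while scaling to detected probes moved it to −0.04. Hes6 (0.063), Hes7 (0.026) and Nmb (0.0068) changed sign under spike-in scaling, none of them called, and Mcam changed to −0.45 when its probes were averaged. The fit with no replicate block, that is without the animal pairing, kept a count of 3 genes, with Hes2 called (adjusted p = 0.0370) in place of Hey1 (0.0660), and Notch1 was not called (0.0831). Over all results and alternatives, 322 counts of called genes stayed within 1.5 times and 42 moved further, and of the differences of tested genes 806 kept their sign and side of the threshold, 31 lost the call and 13 gained it. The untested difference of means changed sign under 1 of 10 alternatives for Hes3, 6 of 10 for Hey2 and 0 of 10 for Hes1. Signal over background limits Hes1, Hes3 and Hey2, and the size of the fall of Heyl.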
